A study of Homo sapiens with 3 samples.

Results

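The genes described here encode the subunits of CCT, the cytosolic chaperonin also called TRiC. They were taken as the 8 gene symbols TCP1, CCT2, CCT3, CCT4, CCT5, CCT6A, CCT7 and CCT8, read from every probe set that the platform annotation gives to 1 gene only. Of the 8 genes, 7 had such a probe set, 12 probe sets in all among 54675, and all 7 were among the 12351 genes measured. TCP1 had none, because its 3 probe sets are annotated to the small nucleolar RNA gene SNORA29 as well. Total RNA of the human lung adenocarcinoma cell line NCI-H1650 was hybridised to Affymetrix arrays after exposure to 40 μM colossolactone H, a triterpenoid of the fungus Ganoderma colossum. The groups were cells exposed for 12 h, cells exposed for 24 h, and control cells of the same line and medium, for which the labels give neither a vehicle nor a collection time. Each group held 1 array from 1 culture of 1 line, so there was no replicate spread, no error or p-value can be given, and every difference describes these 3 arrays.

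CCT is a pair of stacked rings, each built from 8 different but related subunits that are encoded by separate genes. Unfolded proteins are held in the central cavity and released after ATP hydrolysis closes a lid made from the subunits themselves. Actin and the tubulins depend on it, as do several WD-repeat proteins of the cell cycle, and the hexameric cochaperone prefoldin delivers some of them to it. In yeast the subunits corresponding to CCT3, CCT6A, CCT7 and CCT8 bind ATP with lower affinity than those corresponding to TCP1, CCT2, CCT4 and CCT5.

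The stretches before the start sites of 3 subunit genes are shown here. Of the 7 subunits measured, CCT7 had the largest difference from the control, CCT3 came next, and CCT2 alone lay lower at both times. Each is the 250 bases before the RefSeq start site on GRCh38.p14, written 5′ to 3′ on the strand of the gene. The CCT7 stretch is chr2:73234058-73234307 on the plus strand, the CCT3 stretch is chr1:156338293-156338542 on the minus strand, and the CCT2 stretch, from the more upstream of 2 start sites listed, is chr12:69585209-69585458 on the plus strand. Capitals mark matches, on either strand, to the motifs named after the sequences.

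CCT7: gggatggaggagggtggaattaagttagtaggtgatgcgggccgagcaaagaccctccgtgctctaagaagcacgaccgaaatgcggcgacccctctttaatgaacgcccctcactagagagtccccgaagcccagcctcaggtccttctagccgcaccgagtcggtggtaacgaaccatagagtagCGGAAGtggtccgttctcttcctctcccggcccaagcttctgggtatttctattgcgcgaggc
CCT3: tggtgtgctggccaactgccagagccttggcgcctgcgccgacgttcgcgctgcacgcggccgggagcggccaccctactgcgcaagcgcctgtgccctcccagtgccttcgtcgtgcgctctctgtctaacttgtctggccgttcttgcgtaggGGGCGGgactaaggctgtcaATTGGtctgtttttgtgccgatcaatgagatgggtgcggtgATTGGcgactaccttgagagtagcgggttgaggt
CCT2: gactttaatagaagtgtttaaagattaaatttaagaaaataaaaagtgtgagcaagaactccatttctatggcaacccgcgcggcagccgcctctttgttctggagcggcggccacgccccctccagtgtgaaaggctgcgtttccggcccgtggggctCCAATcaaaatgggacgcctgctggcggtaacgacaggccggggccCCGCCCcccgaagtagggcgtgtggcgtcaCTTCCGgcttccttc

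The motifs searched on both strands were both forms of a heat shock element core, GAANNTTC and TTCNNGAA, the amino acid response element TGATGCAA, the antioxidant response element TGACNNNGC, the ETS core CGGAAG, the CCAAT box, the GC box GGGCGG, the E-box CACGTG and the cyclic AMP response element TGACGTCA. The single match before CCT7 was an ETS core, at bases -63 to -58 from the start site, a motif held by 16.5% of 35116 promoter stretches of the same length. CCT3 held a GC box, found in 42.6% of stretches, and a pair of CCAAT boxes, found in 32.0%. The CCT2 stretch held a CCAAT box, a GC box and an ETS core. Over the 9 stretches listed for 7 of the subunits, a GAANNTTC core occurred before TCP1 and before the more downstream CCT2 start site, against 5.78% of all stretches. TGACNNNGC, held by 10.9% of all stretches, occurred before CCT4 alone, as 1 site that the overlapping CCT4 stretches share. TTCNNGAA, TGATGCAA, CACGTG and TGACGTCA were in none of the 9, and their shares of all stretches were 6.62%, 0.772%, 6.34% and 1.65% in that order. The stretch listed for CCT5 lies inside the gene record rather than before it. CCT6A is not listed. A match describes these letters only.

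Of the 7 subunits measured, CCT7 alone stood 25% or more above the control, and none stood 20% or more below it, which is the same ratio turned round. The CCT7 subunit, also called eta (Entrez gene 10574), gave a MAS5 signal of 9216 units at 12 h and 9016 at 24 h, against 6558 in the control. Both treated arrays thus lay above the control and within a few percent of each other. Its log2 difference from the control was 0.49 at 12 h, a 1.41-fold higher signal, and 0.46 at 24 h, 1.37-fold higher, and both differences share the 1 control array. At 12 h, 5.43% of measured genes had a higher difference than CCT7, and at 24 h 7.48% had. Among the 5569 genes with a mean signal of 1000 or more, where arrays scattered less, the shares were 2.8% and 4.67%. CCT7 has 1 probe set, so no second one could be set beside it.

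**Figure D1:**
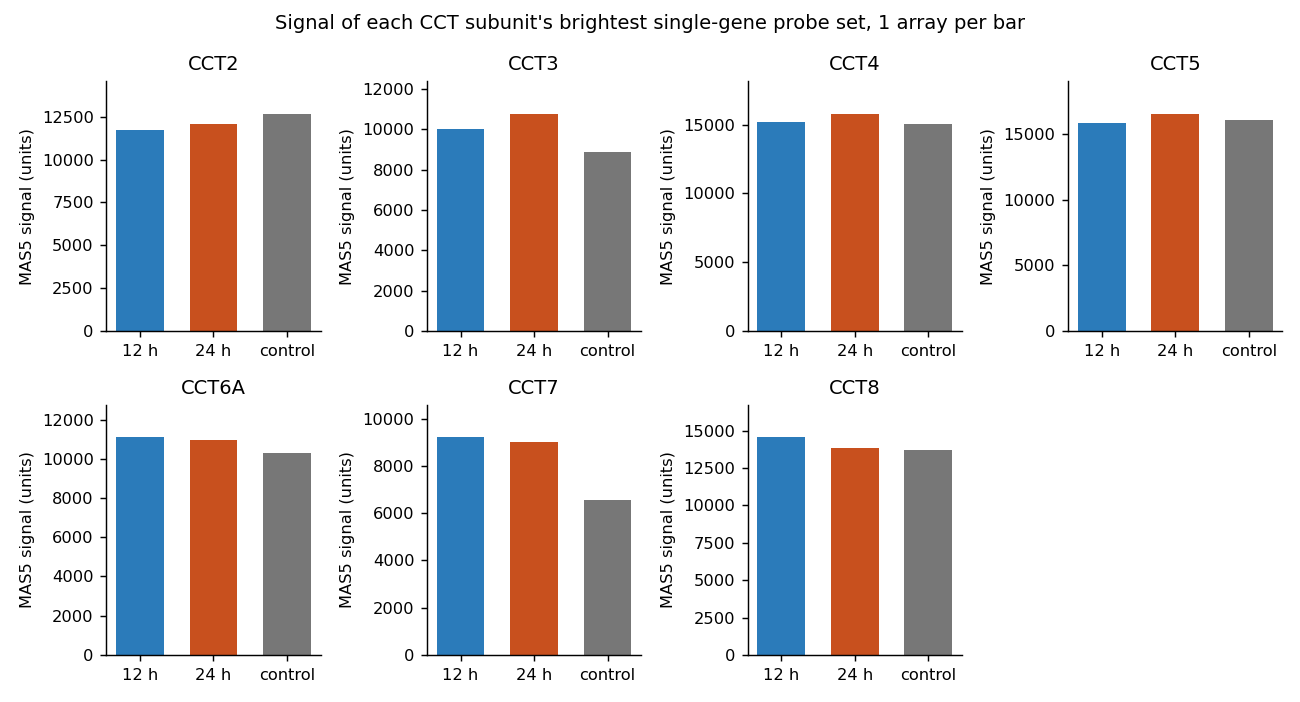
Bars give the MAS5 signal in units, from 0, of the brightest single-gene probe set of each subunit on the 12 h, 24 h and control arrays, 1 array per bar, with a separate axis for each subunit. CCT7 lies lower in the control (6558 units) than on both treated arrays, while CCT4 and CCT5 are nearly level.

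CCT3, or gamma (Entrez gene 7203), was the second subunit to lie above the control at both times. Its signal was 9993 units at 12 h and 10777 at 24 h, against 8873 in the control. The log2 difference was 0.17 at 12 h and 0.28 at 24 h, with the 24 h signal 1.21-fold the control's, just short of the 25% line. Among genes with a mean signal of 1000 or more, 20.9% had a higher difference at 12 h and 12.8% at 24 h, so CCT3 did not stand far from genes at large. It too has 1 probe set.

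CCT6A, or zeta (Entrez gene 908), and CCT8, or theta (Entrez gene 10694), were a little above the control. CCT6A stood at 11096 units at 12 h and 10970 at 24 h, against 10290 in the control, with log2 differences of 0.11 and 0.09. Its second probe set read 8000 at 12 h and 8636 at 24 h, against 8118 in the control, so that it was level at 12 h (-0.02) and above the control at 24 h (0.09). CCT8 stood at 14555 units at 12 h and 13852 at 24 h, against 13737 in the control. Its log2 differences of 0.08 and 0.01 place the 24 h array level with the control, and the sign at 24 h turned under 2 of 9 alternatives. The other CCT8 probe set read 25.3, 45.1 and 49.5 units at 12 h, at 24 h and in the control, below the floor of 61.4 units on every array, and gave no difference.

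Among the subunits on the other side of the ring, CCT4, or delta (Entrez gene 10575), read 15205 units at 12 h and 15790 at 24 h, against 15045 in the control. Its log2 differences were 0.02 and 0.07. A second, dim CCT4 probe set read 81.5 at 12 h and 125.3 at 24 h, against 101 in the control, which put it at -0.31 and 0.31, on opposite sides of the control and just inside the lines at 25% above and 20% below. CCT5, or epsilon (Entrez gene 22948), read 15853 units at 12 h and 16534 at 24 h, against 16029 in the control. That is -0.02 and 0.04 on the log2 scale, and its second probe set gave -0.12 and -0.08. CCT4 and CCT5 were therefore level across the arrays in their brightest probe sets, while the second CCT5 probe set lay below the control at both times. The sign of CCT4 at 12 h turned under 3 of 10 alternatives and that of CCT5 at 24 h under 2 of 10. Most of these alternatives leave the value of a bright probe set unchanged, so the counts understate how easily the signs turned.

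CCT2, or beta (Entrez gene 10576), was the one of the 7 measured subunits whose control array was the highest. Its signal was 11705 units at 12 h and 12087 at 24 h, against 12675 in the control, or log2 differences of -0.11 and -0.07. The second CCT2 probe set read 1930 units at 12 h and 1850 at 24 h, against 2035 in the control, so both probe sets lay below the control at both times. By their suffix (_s_at), both may match more than 1 transcript.

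The 3 probe sets annotated to TCP1 and SNORA29 together were not assigned to either gene. The brightest read 10157 units at 12 h and 10852 at 24 h, against 10971 in the control. The other two were at log2 differences of -0.21 and -0.17 at 12 h and of -0.24 and -0.51 at 24 h. All 3 lay below the control at both times, by amounts that differed among them at 24 h.

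**Figure D2:**
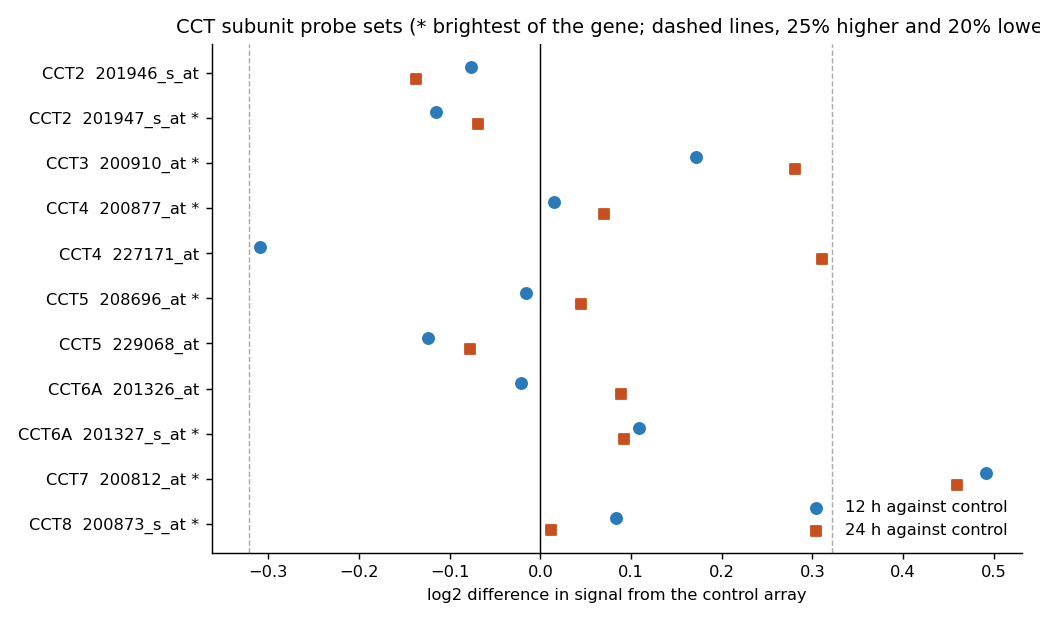
Points give the log2 difference in MAS5 signal from the control array for the 11 CCT probe sets above the floor, with circles for 12 h and squares for 24 h, and dashed lines at 25% above and 20% below the control. Only the CCT7 probe set lies beyond the lines, and the dim second CCT4 probe set lies just inside them on opposite sides at the 2 times.

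Over the 7 subunits the median log2 difference was 0.08 at 12 h, against 0.00 over all measured genes, and 0.07 at 24 h, again against 0.00. At 12 h 5 of 7 subunits were above the control, where 50.2% of measured genes were, and at 24 h 6 of 7 were, where 48.8% were. Over all 11 CCT probe sets above the floor, 5 were higher and 6 lower at 12 h, and 8 were higher and 3 lower at 24 h, so the 12 h count depends on taking the brightest probe set of CCT4 and CCT6A. Counted at 25% or more above the control, 1 of 7 was higher at 12 h, against 12.5% of measured genes, and 1 of 7 at 24 h, against 13.8%, and it was CCT7 both times. These shares are close to the background. Among genes with a mean signal of 1000 or more the background was 7.63% at 12 h and 10.2% at 24 h. No subunit was 20% or more below the control at either time, where 12.5% of measured genes were at 12 h and 16.1% at 24 h. None reached 1.5-fold in either direction, against 3.41% of genes higher and 3.1% lower at 12 h and 4.09% higher and 4.91% lower at 24 h. Without CCT7, the other subunits lay between -0.11 and 0.17 at 12 h and between -0.07 and 0.28 at 24 h.

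The spread of the subunits can be set beside that of genes of similar brightness. Among genes with a mean signal of 1000 or more, the robust SD of the log2 difference, taken from the median absolute deviation, was 0.20 at 12 h and 0.25 at 24 h. At 12 h CCT7 was the subunit farther than that from 0, and at 24 h CCT7 and CCT3 were. For 5 of 7 subunits the highest of the 3 arrays exceeded the lowest by under 10%, from 4.29% for CCT5 to 8.29% for CCT2. For CCT3 it did so by 21.5% and for CCT7 by 40.5%.

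**Figure D3:**
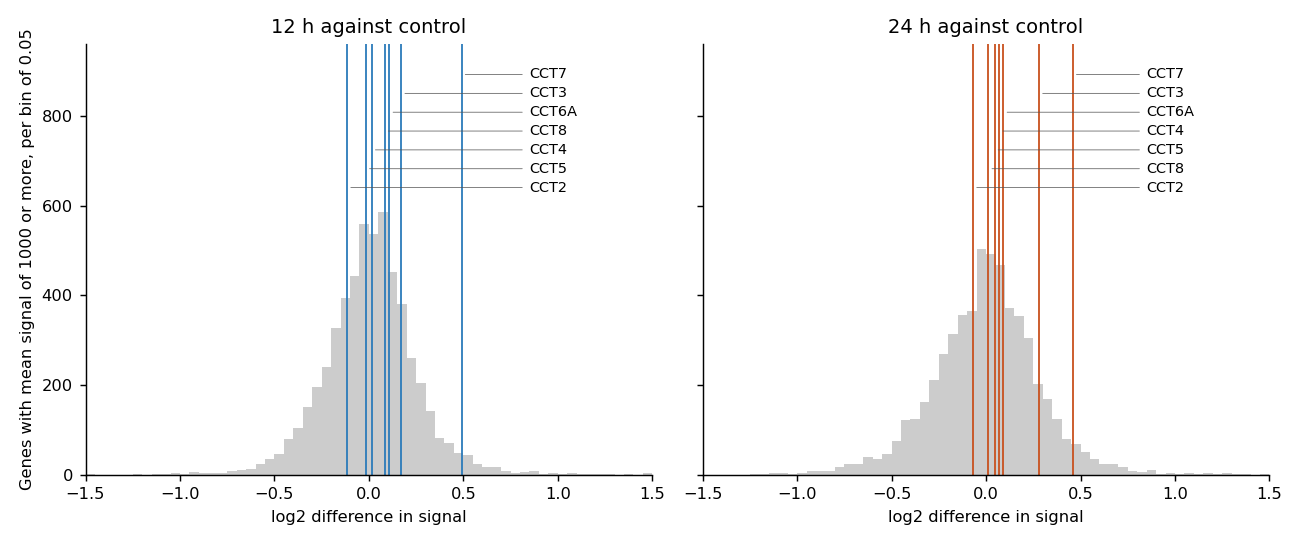
Grey bars count the 5569 genes with a mean signal of 1000 or more by their log2 difference in signal (bins of 0.05, values beyond 1.5 drawn in the end bins), and lines mark the 7 CCT subunits at 12 h and 24 h against the control. CCT7 lies in the upper tail at both times, and the other subunits fall in the body of the distribution.

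Grouped by the ATP affinity of their yeast counterparts, a grouping chosen after the values were seen, the subunits of the lower-affinity side were above the control in 4 of 4 cases at both times, against 50.2% of measured genes at 12 h and 48.8% at 24 h. The count was not stable, since CCT6A was at -0.02 at 12 h with its transcript-specific probe set and CCT8 kept its sign at 24 h under 7 of 9 alternatives. Their median log2 difference was 0.14 at 12 h and 0.19 at 24 h. Of the higher-affinity side 3 of 4 genes were measured, and of these 3, 1 was above the control at 12 h and 2 at 24 h. Their medians were -0.02 at 12 h and 0.04 at 24 h. CCT8 lay at 0.01 at 24 h, so the sides were not far apart in every member, and no test of the difference was possible.

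Between the treated arrays the subunits differed less, as did genes at large. Among genes with a mean signal of 1000 or more the robust SD was 0.14. Against the control it was 0.20 at 12 h and 0.25 at 24 h. CCT7 was at -0.03 at 24 h against 12 h, or 0.0015 after median centring, and CCT3, at 0.11, was the highest of the 7. CCT8 was the lowest at -0.07. The median was 0.05, against -0.01 over all measured genes, and 4 of 7 were higher at 24 h, where 46.3% of measured genes were. None of the 7 was 25% higher or 20% lower at 24 h than at 12 h, against 6.76% of genes higher and 8.79% lower. The dim CCT4 probe set alone was at 0.62.

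Genes with patterns like the median subunit were named by the distance between their pair of log2 differences from the control and the subunits' median pair, over 3 arrays. Nearest among 3627 genes with a mean signal of 1000 or more and at least 2 probe sets above the floor were COTL1, an actin-binding protein, at 0.08 and 0.07, and RBM5, a splicing regulator, at 0.08 and 0.07. PNKD was at 0.08 and 0.06, ANAPC16, a subunit of the anaphase-promoting complex, at 0.09 and 0.07, and PRDX6, a peroxiredoxin, at 0.08 and 0.07. As many as 159 of these genes lay within 0.05 of the median pair, so the pattern is a common one on these arrays.

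Partners of the chaperonin were read from 9 lists. Prefoldin, which hands actin and tubulin chains to CCT, had 5 of 6 subunits measured. The median subunit was at 0.28 at 12 h and 0.12 at 24 h, against 0.00 over all measured genes at both times. PFDN2 read 5023 units at 12 h and 5400 at 24 h, against 3942 in the control. At 0.35 and 0.45 it was the 1 prefoldin gene of 5 that was 25% or more above the control, and it was so at both times. Of all measured genes, 12.5% were at 12 h and 13.8% at 24 h. PFDN5 was at 0.28 and 0.29, PFDN1 at 0.29 and 0.12, PFDN4 at 0.22 and 0.08 and VBP1 at -0.07 and 0.04. The brightest transcript-specific PFDN4 probe set gave -0.33 at 12 h and 0.54 at 24 h. PFDN6 has only probe sets annotated to several genes.

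The prefoldin-like proteins UXT, URI1 and PDRG1, which sit in a related complex, were above the control in 3 of 3 cases at both times, where 50.2% of measured genes were at 12 h and 48.8% at 24 h. UXT was at 0.23 and 0.09, URI1 at 0.12 and 0.13 and PDRG1 at 0.18 and 0.06 at 12 h and 24 h. Of the phosducin-like cofactors, which bind CCT and modulate its folding, PDCL was at 0.09 and 0.19 and TXNDC9 at 0.19 and 0.11. PDCD5, which also binds the chaperonin, was at -0.02 and -0.10. None of these 6 genes was 25% higher or 20% lower than the control, though TXNDC9 was at 0.70 at 24 h in its brightest transcript-specific probe set.

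Tubulin cofactors, which take tubulins from CCT and assemble the dimer, had 7 of 7 genes measured, the median gene being at 0.15 at 12 h and 0.08 at 24 h. TBCC read 1112 units at 12 h and 1106 at 24 h, against 855.8 in the control, or 0.38 and 0.37. ARL2, a small GTPase of the cofactor complex, was at 0.36 at 12 h and -0.01 at 24 h. TBCA was at 0.18 and 0.23, and TBCD at 0.15 and -0.19, or -0.34 at 24 h against 12 h. Transcript-specific probe sets put TBCD at -0.27 at 12 h and at 0.11 for 24 h against 12 h, so its directions were not shared by its probe sets. TBCC and ARL2 made 2 of 7 that were 25% or more higher at 12 h, and TBCC was the 1 at 24 h. Over all measured genes the shares were 12.5% at 12 h and 13.8% at 24 h, and 1 of 7 is close to that of 24 h.

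Of the proteins that CCT folds, the actin and tubulin list centred on -0.01 at 12 h and -0.02 at 24 h over 11 measured of 13. TUBA1A, an alpha-tubulin, read 12866 units at 12 h and 12600 at 24 h, against 9578 in the control, or 0.43 and 0.40. TUBB2A, a beta-tubulin, was at 0.28 at 12 h and 0.65 at 24 h, while TUBB6 was at -0.37 and -0.32 and TUBG1, the gamma-tubulin of centrosomes, at -0.30 and -0.19. Tubulin genes are close in sequence, so signal may be shared between them. ACTB, beta-actin, was at -0.01 and -0.02, a value chosen after it was seen. It was read from the 3′ array control for actin, the brightest of 6 single-gene ACTB probe sets.

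Other substrates went both ways, with medians of -0.01 at both times over 12 of 12 genes. PLK1, a mitotic kinase, was at -0.26 and -0.77 at 12 h and 24 h. It was the one substrate of the list that was 20% or more lower at 24 h, where 16.1% of measured genes were. At 12 h that was CCNE1, named after its value was seen, at -0.34, where 12.5% of measured genes were. CCNE1 was at 0.02 at 24 h. GNB2, a G protein beta subunit with WD repeats, was at 0.54 and 0.08. STAT3, a transcription factor, was at -0.17 and -0.28, and WRAP53, a WD-repeat protein of telomerase, at -0.10 and -0.29.

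**Figure D4:**
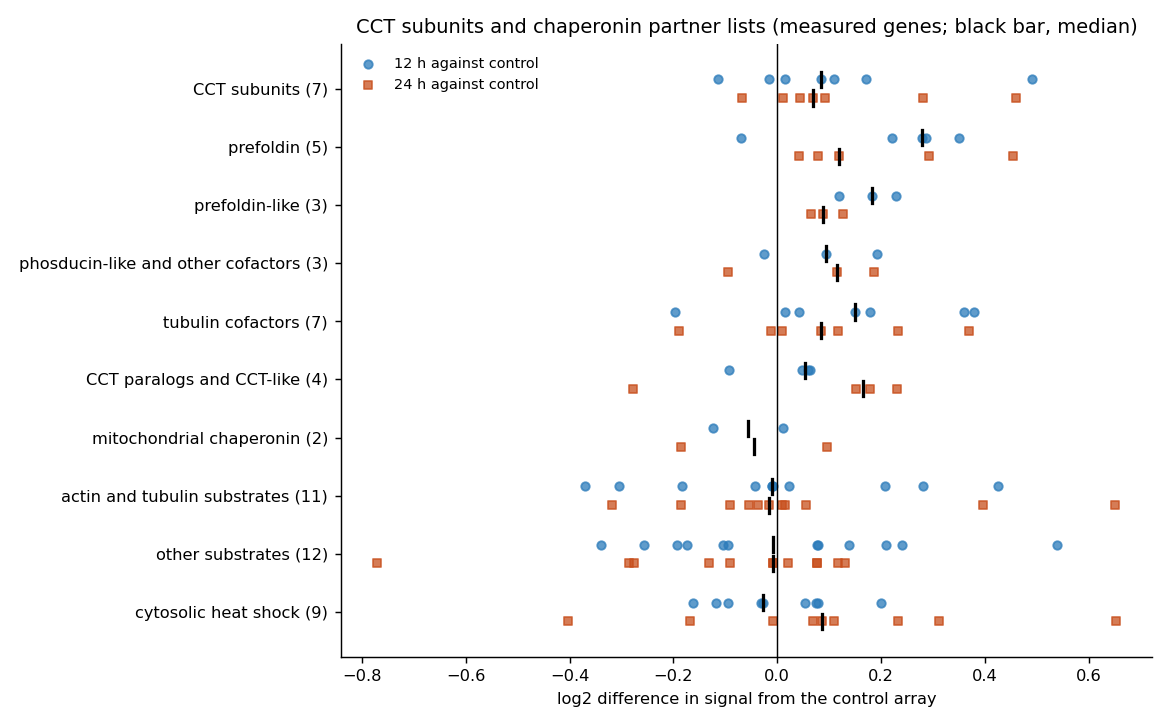
Points give the log2 difference in MAS5 signal from the control for each measured gene of the CCT subunits and of the 9 partner lists (number of genes in brackets), with circles for 12 h, squares for 24 h and black bars for medians. The prefoldin median at 12 h, 0.28, is the highest shown, and the substrate lists centre near 0.

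Relatives of CCT were read as a contrast. CCT6B, the testis form of the zeta subunit, read 217.2 units at 12 h and 231.2 at 24 h, against 208 in the control, or 0.06 and 0.15. The chaperonin-like Bardet-Biedl proteins MKKS, BBS10 and BBS12 were at 0.05, 0.06 and -0.09 at 12 h and at 0.23, -0.28 and 0.18 at 24 h. The mitochondrial chaperonin HSPD1 was at 0.01 and 0.10, and its lid HSPE1 at -0.12 and -0.18. The brightest HSPD1 probe set among those specific to 1 transcript gave 0.60 and 0.62. For MKKS such a probe set gave 0.35 at 12 h.

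Several cytosolic heat shock genes are driven by the heat shock factor that is also known to bind human CCT genes. The list of such heat shock genes and their factor centred on -0.03 at 12 h and 0.09 at 24 h over 9 of 12 measured. HSPA8 and HSPA1A, the constitutive and inducible HSP70 genes, have only probe sets annotated to several genes, so they enter neither the count nor the median. STIP1, which links HSP70 to HSP90, was at 0.20 and 0.65, the 24 h value being 0.32 as the median over its probe sets. It stood beside HSP90AB1, a cytosolic HSP90, at 0.07 and 0.31. HSPB1, a small heat shock protein, was at -0.12 and -0.40, and HSF1, the factor itself, at -0.16 and -0.17. The genes thus did not share 1 direction.

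A few checks bear on these values. Epithelial markers were measured in 6 of 6 cases, and 5 of 6 were lower than the control at 12 h and 4 of 6 at 24 h. Of 12351 measured genes, 5977 were lower at 12 h and 6166 at 24 h. KRT19, a keratin, was at -0.54 and -0.60, while CDH1 was level at -0.014 and 0.005. None of 4 leukocyte markers with a single-gene probe set was measured, and HBB, of red cells, passed the floor at 12 h alone, at 90.6 units. Of the fibroblast markers 2 of 4 and of the endothelial markers 2 of 4 were measured, each read from its brightest probe set. All were lower at both times, among them COL3A1 at 650.4 units at 12 h and 584.9 at 24 h, against 876.9 in the control. Both endothelial markers were dim, not far above the floor of 61.4 units. PECAM1 read 98.3 units at 12 h and 89.3 at 24 h, against 137.1 in the control, and TEK read 92.9 and 91.0, against 111.8. In RNA of whole cultures, fewer cells of a type and less RNA per cell cannot be told apart. RNA integrity can be read from ACTB array controls, whose 3′ signal exceeded their 5′ signal by a ratio of 5.38 at 12 h and 6.55 at 24 h, against 4.95 in the control, and the same ratio for GAPDH was slightly higher on both treated arrays than in the control, where it was 1.21. The part of these in the CCT values was not tested. RefSeq holds 16 pseudogene records named after CCT subunits, of which 2 belong to CCT7 and 5 to CCT6, so probe sets may read copies as well.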

How the data were processed

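Per the submitters' processing notes, the deposited values are MAS5 signal intensity on a linear scale, with version and settings not given in the sources used here. Each array's mean, after trimming 2% from both ends, was 500.1 units, and the signals were used without rescaling. The platform annotation supplied gene names (1 gene for 41097 probe sets, several for 1801, none for 11777), and 41043 of the first kind matched a RefSeq gene by Entrez identifier. A gene took its brightest single-gene probe set. Lower signals were raised to a floor, the 50th percentile of all values (61.4 units), and genes above it on 1 array or more counted as measured. The 3 comparisons were log2 differences between arrays, counted at 25% higher or 20% lower and at 1.5- and 2-fold. With 1 array per group no test was run, and the number of arrays limits precision.

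Every subunit was named. Partner lists gave all measured members up to 6, and otherwise the 4 farthest on average from the control. The 5 nearest genes were taken by Euclidean distance. The members and lists were chosen with earlier results of these data known. Results were recomputed under 9 other settings, and under 1 chosen after seeing the data (TCP1 from its shared probe sets). AHSA1 of the heat shock list was not analysed here. Python 3.11.15, R 4.3.3 and limma 3.58.1 were used, and the procedure was tested on simulated data. Promoter sequences are from RefSeq on GRCh38.p14.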

Additional observations from a re-analysis of the deposited data

Results flagged for a closer look

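Some genes lay on opposite sides of the control at the 2 times, with 1 array each, and the difference between the times was not tested. CCT5 was at -0.016 at 12 h and 0.045 at 24 h on the log2 scale, both small. Among partner genes, again at 12 h and then 24 h, VBP1 was at -0.070 and 0.043, ARL2 at 0.36 and -0.012, TBCD at 0.15 and -0.19, BBS10 at 0.059 and -0.28, and BBS12 at -0.093 and 0.18.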

How the results depend on the processing

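No paired analysis was possible because each group held 1 array. A value was taken as moved when it shifted by more than the robust SD of its comparison over measured genes (0.26 for 12 h, 0.29 for 24 h and 0.18 for 24 h against 12 h). Of the medians and counts recomputed, 475 stayed and 5 moved. Many of these, and of the single-gene values below, could hardly move, since other floors leave bright probe sets unchanged. The robust SD also exceeds the subunit medians, so such a median could change sign and still count as stayed. The subunit median at 24 h was 0.0035 under quantile normalization and counted as stayed. The tally therefore does not measure how stable small differences are. With the median over probe sets, 1 subunit, CCT4 at 0.34, was 25% or more higher at 24 h than at 12 h, where 0 had been, because its dim second probe set enters, and the phosducin-like list was at 0.13 for 24 h against 12 h. With transcript-specific probe sets the heat shock list was at 0.32 for 24 h against 12 h, and the mitochondrial chaperonin list, then HSPD1 alone, at 0.60 at 12 h and 0.62 at 24 h. Of single genes, 1280 values stayed, 17 moved and 2 reversed: TBCD at 24 h against 12 h, -0.34 as reported, was 0.069 as the median over probe sets and 0.11 with transcript-specific ones; the cause was not tested. Over 10 alternatives, all of which use its 1 probe set, CCT7 lay between 0.47 and 0.49 at 12 h and between 0.45 and 0.49 at 24 h. The subunit median lay between 0.015 and 0.083 at 12 h and between 0.0035 and 0.096 at 24 h, and with TCP1 read from its shared probe sets it was 0.049 and 0.057. With transcript-specific probe sets 5 subunits were left, because CCT2 has no such probe set and that of CCT8 lay below the floor. Signal under the floor limits the second CCT8 probe set.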
